A study of Mus musculus with 4 samples.

Results

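The genes described here encode the laminin chains and the integrin subunits, only some of which bind laminin. They also encode the nidogens, perlecan, agrin and dystroglycan, which join laminin to the rest of the basement membrane or to the cell. They were chosen by name, as every probe set in the files annotated to a single symbol of a laminin chain, an integrin alpha or beta subunit, Nid1, Nid2, Hspg2, Agrn or Dag1. The choice gave 85 of 45037 probe sets and 39 of 18193 named genes. Itga11 and Itgad are not analysed here. The tissue was the ureter of adult male mice (Theiler stage 28), bred from FVB/N females and males carrying the SMGA/EGFP transgene, whose EGFP is driven by the smooth muscle gamma actin gene and so marks smooth muscle. The piece between kidney and bladder was dissected by its green fluorescence, and the RNA of each of 4 unpooled samples went through 2 amplification rounds before 1 Affymetrix MOE430 array. All 4 samples carry the transgene and form 1 group, so the questions were which of these genes the ureter expressed and how the samples differed. The labels do not say that each sample came from a separate animal, so p-values measure the spread between these samples only.

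A basement membrane is a thin sheet of matrix that lies under every epithelium and around muscle, Schwann and fat cells and vessels. Laminins are trimers of an alpha, a beta and a gamma chain that polymerise on the cell surface, and nidogen and perlecan tie that polymer to the collagen IV network. Cells hold on to it through integrins, which are pairs of an alpha and a beta subunit, and through dystroglycan. In the ureter such sheets underlie the urothelium and wrap each smooth muscle cell.

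Levels are log2(signal + 16) of a gene's probe set with the highest mean, written in the order of replicates 1 to 4, an order with no meaning, and means are given ± SD with n = 4. Probe sets differ in how well they bind, so levels of different genes are not compared. A probe set was above background where its mean over the samples exceeded the arrays' own thresholds in limma's one-sided moderated test with Benjamini-Hochberg adjustment over all probe sets, and 1 such probe set was enough for its gene to count as above background. The thresholds were 7.25, 6.99, 7.57 and 7.36. Precision is limited by having only 4 arrays.

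The samples differed in markers of other tissues, and replicate 3 stood apart most. Smooth muscle and urothelium were present, with 9 of 10 and 10 of 12 marker genes above background, and 0 of 6 kidney tubule markers were. In replicate 3 all 12 skeletal muscle markers lay over the array's threshold, against 2, 4 and 4 in replicates 1, 2 and 4, and their summed signal was 247104 there against 1111 to 1200. Replicate 3 also had the lowest fibroblast and endothelial markers, with medians of -2.15 and -1.90 log2 units relative to the mean of the other 3 samples. All 6 liver markers lay over the threshold in replicates 1 and 3, and 1 of them in each of the other samples. Of 8 male accessory gland markers, 7, 7, 4 and 2 did in replicates 1 to 4, with summed signals of 7070, 71557, 155070 and 871. Of the fat cell markers, Fabp4 had 14.93 in replicate 3 against 7.06 to 8.33. The list's summed signal, 31483 there against 198 to 449, was mostly that of Fabp4. Of the 4 fat cell genes measured, 2 lay over the threshold in replicate 3, Fabp4 and Adipoq, the latter at 7.77 against a threshold of 7.57. Lep, the fat cell hormone, was under the threshold in each sample. For Gapdh, the signal ratio of 3' to 5' probes, a sign of RNA integrity after amplification, came to 34.35, 36.94, 31.62 and 18.77, so replicate 4 had the lowest. In bulk tissue, fewer cells of a type and less RNA per cell cannot be told apart.

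Of the 39 genes, 24 (61.5%) were above background, against 57.8% of all named genes, a share near that of genes in general. By probe set the figures were 39 of 85 (45.9%), against 40.9% of all probe sets and 47.8% of those with 1 gene symbol. Sample by sample and without a test, 30, 33, 32 and 29 of the 39 genes lay over the array's threshold, where 66.8%, 68.5%, 67.4% and 65.9% of all named genes did. Only Itga7, Itga10 and Itgam were over it in no sample. The families were split unevenly: 8 of 10 laminin chains, 6 of 8 integrin beta subunits and 6 of 16 integrin alpha subunits were above background, with Nid1, Hspg2, Agrn and Dag1. With a stricter threshold, the median of the receptor probe sets plus 3 median absolute deviations, Lamc1, Itga2b, Itga9, Itgb2, Itgb4 and Itgb7 lost their calls and 18 genes kept theirs.

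**Figure D1:**
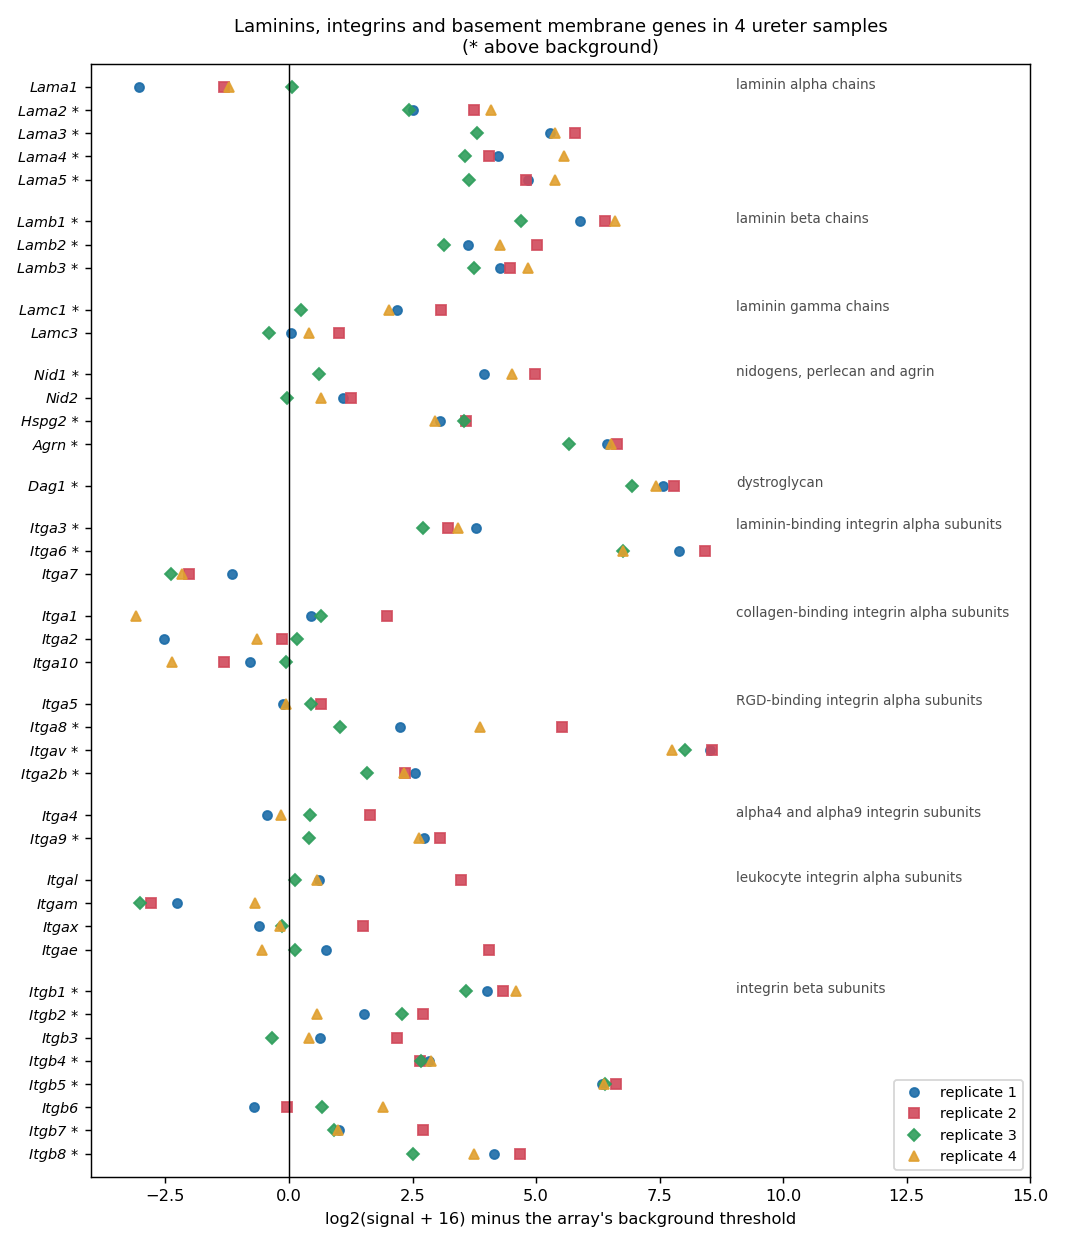
Level of each gene in each sample, as log2(signal + 16) minus that array's background threshold, with 1 point per sample (n = 4) and the genes in rows by role; an asterisk marks the 24 genes above background. The 4 points of Dag1, Itgav and Itgb5 lie close together far right of the line at 0, those of Nid1 and Itga8 are spread over 3.80 and 3.90 log2 units before the thresholds are subtracted, and those of Itga7 and Itgam all lie left of it.

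Promoter sequence is shown for the 3 genes above background that lay furthest below the other samples in replicate 3, namely Nid1, Itga8 and Itga9. Each run is the 250 bases before the RefSeq start of the gene in GRCm38.p6, 5′ to 3′ on the gene's own strand, and capitals mark matches on either strand to a GC box (GGGCGG) or a CCAAT box (CCAAT). Nid1 was read from chr13:13437352-13437601 (+), Itga8 from chr2:12301945-12302194 (-) and Itga9 from chr9:118711442-118711691 (+).
Nid1: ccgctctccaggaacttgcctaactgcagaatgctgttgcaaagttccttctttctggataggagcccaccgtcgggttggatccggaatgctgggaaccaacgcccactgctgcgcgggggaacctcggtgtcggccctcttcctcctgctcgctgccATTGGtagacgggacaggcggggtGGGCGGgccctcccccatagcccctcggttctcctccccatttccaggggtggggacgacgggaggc
Itga8: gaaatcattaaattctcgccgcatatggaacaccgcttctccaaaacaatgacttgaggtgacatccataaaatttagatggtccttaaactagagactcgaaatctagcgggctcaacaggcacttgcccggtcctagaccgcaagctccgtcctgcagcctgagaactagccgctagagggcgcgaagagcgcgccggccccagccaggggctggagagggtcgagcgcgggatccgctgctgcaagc
Itga9: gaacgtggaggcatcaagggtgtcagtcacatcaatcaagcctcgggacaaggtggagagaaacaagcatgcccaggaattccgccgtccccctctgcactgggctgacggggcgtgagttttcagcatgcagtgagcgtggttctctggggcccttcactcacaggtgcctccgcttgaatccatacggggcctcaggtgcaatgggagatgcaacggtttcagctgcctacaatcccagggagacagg

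The Nid1 window holds 1 GC box and 1 CCAAT box and the windows of Itga8 and Itga9 hold 0 of each. A TATA box (TATAAA) and the CArG box, the element of smooth muscle promoters, had 0 matches in these 3 windows. Of all 32851 RefSeq promoter windows of this length, 32.7% hold a GC box, 33.8% a CCAAT box, 12.4% a TATA box and 1.5% a CArG box, so the absence of the CArG box is what most windows show. GC content was 64.4%, 56.4% and 58.4% in Nid1, Itga8 and Itga9, against a median of 52.4% over all windows. A match is a run of letters and says nothing of whether a factor binds there.

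Among the laminin alpha chains, which carry the domains that receptors bind, Lama2, Lama3, Lama4 and Lama5 were above background and Lama1 was not. Lama2, the chain of muscle and Schwann cell basement membranes, had levels of 9.75, 10.74 and 11.46 in replicates 1, 2 and 4, and lay 0.65 below their mean in replicate 3. Its mean was 10.49 ± 0.77 (adjusted p = 3.41e-05), so it was high in replicate 4 and low in replicates 1 and 3. Lama4, the chain of vessel walls and of fat and smooth muscle cells, had 11.47, 11.04, 11.14 and 12.92 (11.64 ± 0.87, adjusted p = 3.81e-06). It stood high in replicate 4, by 1.70 log2 units over the mean of the other samples, which lay between 11.04 and 11.47.

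The alpha chains of epithelial sheets were also expressed. Lama5, found in most adult basement membranes, had 12.08, 11.78, 11.22 and 12.75 (11.96 ± 0.64, adjusted p = 1.29e-06). Lama3, whose product anchors the basal cells of stratified epithelia, had 12.53, 12.79, 11.37 and 12.75 (12.36 ± 0.67, adjusted p = 1.45e-06). Both were lowest in replicate 3. Lama1, the chain of the early embryo and of kidney tubules, had 4.21, 5.68, 7.63 and 6.14, and its value exceeded the threshold in replicate 3 only.

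All 3 beta chains and 1 of 2 measured gamma chains were above background. Lamb1, the beta chain of most laminins, had 13.13, 13.38, 12.27 and 13.96 (13.19 ± 0.70, adjusted p = 4.73e-07). Lamb2, the beta chain of vascular smooth muscle, synapses and the kidney filter, had 10.87, 12.02, 10.70 and 11.64 (11.31 ± 0.63, adjusted p = 5.81e-06). Lamb3, the partner of Lama3 in epithelia, had 11.53, 11.46, 11.31 and 12.20 (11.62 ± 0.40, adjusted p = 6.15e-07). Replicate 3 was the lowest sample for each of the 3 beta chains, while the highest was replicate 4 for Lamb1 and Lamb3 and replicate 2 for Lamb2.

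Lamc1, the gamma chain shared by most trimers, had 9.44, 10.06, 7.81 and 9.38 (9.17 ± 0.96, adjusted p = 0.00421), so that in replicate 3 it was 1.82 log2 units below the mean of the other samples and close to the threshold of 7.57. Lamc3, a gamma chain of brain, retina and skin, had 7.29, 8.01, 7.16 and 7.77 and was not above background (adjusted p = 0.499). Among 11 trimers looked at, 8 had all 3 chains above background: laminins 211, 221, 311, 321, 411, 421, 511 and 521, each named by its alpha, beta and gamma chain. Each of the 8 contains Lamc1, one of the calls lost with the stricter threshold. These are counts over whole tissue, with no share over all genes beside them, and do not show that the chains were made in the same cell.

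Nid1, the nidogen that bridges laminin and collagen IV, varied over 3.80 log2 units by its brightest probe set. Its levels were 11.19, 11.97, 8.17 and 11.88 (10.80 ± 1.79, adjusted p = 0.00112), with replicate 3 at 8.17 far below the rest. That sample lay 3.51 log2 units under the mean of the other 3, and 3.36 to 3.76 under when any other sample was left out. The dimmer probe sets of Nid1, not above background, did not show this. The second had 4.27, 4.96, 6.37 and 4.08, highest in replicate 3, and the third had 4.68, 5.04, 4.8 and 4.76. Nid2, the second nidogen, had 8.34, 8.25, 7.52 and 8.02. It was not above background (8.03 ± 0.37, adjusted p = 0.0686) but was without replicate 3 (adjusted p = 0.0224), with adjusted p from 0.0224 to 1 over 10 alternatives, and it too was lowest in replicate 3.

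The brightest probe sets of Hspg2 and Agrn had SDs under 0.5, while their second probe sets, given further on, varied more. Hspg2, which encodes perlecan, had 10.31, 10.58, 11.12 and 10.31 (10.58 ± 0.38, adjusted p = 2.68e-06) and was highest in replicate 3. Agrn, which encodes agrin, had 13.68, 13.64, 13.23 and 13.87 (13.60 ± 0.27, adjusted p = 4.92e-08). Dag1, which encodes both subunits of dystroglycan, had the smallest SD of the 24 genes above background, with 14.82, 14.79, 14.52 and 14.80 (14.73 ± 0.14, adjusted p = 1.5e-08). All 4 of its probe sets were above background, and the brightest lay 0.29 log2 units below the mean of the others in replicate 3. The other 3 probe sets ran the other way there, 0.30, 0.41 and 0.56 above it.

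Of the laminin-binding integrin alpha subunits, Itga3 and Itga6 were above background and Itga7 was not. Itga6, which pairs with Itgb4 in hemidesmosomes and with Itgb1 elsewhere, had 15.14, 15.42, 14.32 and 14.13 (14.75 ± 0.63, adjusted p = 1.05e-07). Itga3, a receptor for the epithelial laminins, had 11.04, 10.21, 10.28 and 10.78 (10.58 ± 0.40, adjusted p = 4.31e-06). Itga7, the laminin receptor of striated and smooth muscle, had 6.10, 4.97, 5.19 and 5.20, under the threshold in each sample. Its single probe set did not stand out in replicate 3, where Acta1, Ckm and Myh1 of skeletal muscle had 14.90, 13.03 and 15.71.

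The 3 collagen-binding alpha subunits measured gave 0 genes above background. Itga1, a collagen IV receptor of smooth muscle and vessels, had 7.70, 8.97, 8.21 and 4.27 (7.29 ± 2.08, adjusted p = 0.988), over the threshold in all samples but replicate 4. Itga2, a collagen receptor of epithelia and platelets, had 4.73, 6.86, 7.74 and 6.72. Itga10, a collagen receptor of cartilage, had 6.46, 5.67, 7.51 and 4.99. Itga2 exceeded the threshold in replicate 3 alone, and neither its mean nor that of Itga10 passed (adjusted p = 1 for each).

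Of the subunits that bind the tripeptide RGD in fibronectin, vitronectin and related proteins, Itgav, Itga8 and Itga2b were above background. Itgav, the shared partner of several beta subunits, was even across samples at 15.76, 15.56, 15.59 and 15.12 (15.50 ± 0.27, adjusted p = 1.17e-08). Itga8, which pairs only with Itgb1 and binds nephronectin in the developing kidney, had 9.50, 12.51, 8.61 and 11.23 (10.46 ± 1.74, adjusted p = 0.00186). It had the widest range of the genes above background, 3.90 log2 units, with replicates 2 and 4 high and replicates 1 and 3 low. Its second probe set, not above background, had 4.19, 6.28, 6.2 and 8.05, lowest in replicate 1 and highest in replicate 4. Smooth muscle markers were highest in replicate 2 (9 of 9 above background) and lowest in replicate 1 (9 of 9). The part of smooth muscle in the Itga8 values was not tested. Npnt, the gene of nephronectin, had 11.59, 11.28, 11.14 and 12.38 and was named after its values were seen.

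Itga5, the fibronectin receptor subunit, had 7.13, 7.64, 8.02 and 7.31 and was not above background (adjusted p = 0.51), although Fn1, the fibronectin gene, was at 11.94 ± 0.83 (adjusted p = 6.44e-06). Itga2b, the platelet subunit, had 9.80, 9.34, 9.15 and 9.70 (9.50 ± 0.30, adjusted p = 8.18e-05), while its partner Itgb3 had 7.87, 9.17, 7.23 and 7.76 and did not pass (8.0 ± 0.82, adjusted p = 0.16). Without replicate 3 Itgb3 did (adjusted p = 0.0478, and 0.0478 to 1 over 10 alternatives). Of 5 platelet markers 2 were above background, Pf4 at 10.95 ± 0.31 and Ppbp at 10.03 ± 0.51, and their part in the Itga2b level was not tested.

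Itga9, a receptor for tenascin and VCAM1 found on muscle and lymphatic vessels, had 9.98, 10.04, 7.97 and 9.99 (9.50 ± 1.02, adjusted p = 0.0018). Replicates 1, 2 and 4 lay between 9.98 and 10.04 and replicate 3 lay 2.03 log2 units below their mean. A second probe set above background had 8.05, 8.37, 7.6 and 9.06 and was also lowest in replicate 3. Itga4, its relative on leukocytes, had 6.81, 8.63, 8.0 and 7.20 and was not above background (adjusted p = 0.423).

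The beta subunits above background were Itgb1, Itgb2, Itgb4, Itgb5, Itgb7 and Itgb8. Itgb1, the partner of most alpha subunits, had 11.26, 11.33, 11.16 and 11.96 (11.43 ± 0.36, adjusted p = 7.71e-07). Itgb4, the hemidesmosome subunit, had 10.09, 9.64, 10.25 and 10.24 (10.06 ± 0.29, adjusted p = 5.94e-06). Itgb5, which pairs with Itgav and binds vitronectin, had 13.59, 13.61, 13.97 and 13.73 (13.72 ± 0.17, adjusted p = 1.73e-08), and all 4 of its probe sets were above background. By the brightest probe set, the SDs of Itgb1, Itgb4 and Itgb5 lay under 0.41, the median SD of all named genes above background. The second probe set of Itgb1 had an SD of 0.61. Itgb1 was highest in replicate 4, by 0.71.

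The beta subunits that with Itgav activate latent TGF-beta differed in their calls. Itgb8 had 11.39, 11.67, 10.08 and 11.11 (11.06 ± 0.70, adjusted p = 1.47e-05) and was lowest in replicate 3. Itgb6, the epithelial one, had 6.55, 6.96, 8.24 and 9.26 and was not above background (7.75 ± 1.24, adjusted p = 0.366). Its second probe set ran differently, with 8.78, 5.29, 8.21 and 4.82. Among 22 integrin pairs known to form, 8 had both subunits above background. They were Itgb1 with Itga3, Itga6, Itga8, Itga9 or Itgav, Itgb4 with Itga6, and Itgav with Itgb5 or Itgb8. Pairs share subunits, Itgb1 being in 11 of the 22, and the calls of Itga9 and Itgb4 were lost with the stricter threshold. No share of pairs over all genes was taken, so the count does not set integrins apart from genes in general.

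By their brightest probe sets, Itgae, Itgal, Itgax, Itga4 and Itgb7 of the leukocyte subunits were highest in replicate 2. Of these only Itgb7 was above background. Itgae, the E-cadherin receptor of lymphocytes within epithelia, had 8.0, 11.04, 7.70 and 6.82 and was not above background (8.39 ± 1.84, adjusted p = 0.173). Itgal, the alpha subunit of LFA-1, had 7.86, 10.48, 7.70 and 7.94, and did not pass (adjusted p = 0.0729) except without replicate 3 (0.0338, with 0.0338 to 1 over 10 alternatives). Replicate 2 exceeded the mean of the others by 3.53 log2 units for Itgae and by 2.65 for Itgal. The second probe set of Itgae was also highest in replicate 2, at 8.88. That of Itgal was under the threshold in each sample and lowest in replicate 2, at 4.67. The dimmer probe sets of Itga4 were not highest in replicate 2.

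Itgb7, which pairs with Itgae and Itga4, had 8.27, 9.71, 8.48 and 8.36 (8.71 ± 0.68, adjusted p = 0.00773). The call on Itgb7 was lost with the threshold at the 99th percentile (adjusted p = 0.063). Itgax, the dendritic cell subunit known as CD11c, had 6.64, 8.49, 7.42 and 7.18 and was over the threshold in replicate 2 only. Of the 9 leukocyte and platelet subunits measured, 6 were highest in replicate 2, where 22.4% of all named genes were. The lymphocyte markers without Ptprc had a summed signal of 2173 in replicate 2, against 532, 881 and 607 in replicates 1, 3 and 4, and Ptprc alone had 5470 there, against 971, 292 and 952. Of the 9 measured, 1 (Ptprc, the pan-leukocyte gene CD45) was above background, and 4 lay over the threshold in replicate 2, against 1, 3 and 3 in the others. Cd3g had 10.41 there against 7.18 to 7.93, Cd3e had 8.10 against 4.74 to 5.84, and Cd3d had 5.62, under the threshold. Ptprc, named after its values were seen, had 9.95, 12.42, 8.27 and 9.92. The part of lymphocytes in these values was not tested.

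Itgb2 and Itgam were not highest in replicate 2. Itgb2, the common beta subunit of leukocytes, had 8.77, 9.71, 9.86 and 7.93 (9.07 ± 0.90, adjusted p = 0.00261), high in replicates 2 and 3 and low in replicate 4. Itgam, the CD11b subunit of macrophages and neutrophils, had 4.98, 4.21, 4.56 and 6.67 by its single probe set, under the threshold in each sample (adjusted p = 1). Of 7 macrophage markers 5 were above background in the same samples. Csf1r, Cd68 and Adgre1 were among them, with ranges of 11.48 to 12.35, 8.77 to 9.70 and 8.27 to 9.62.

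**Figure D2:**
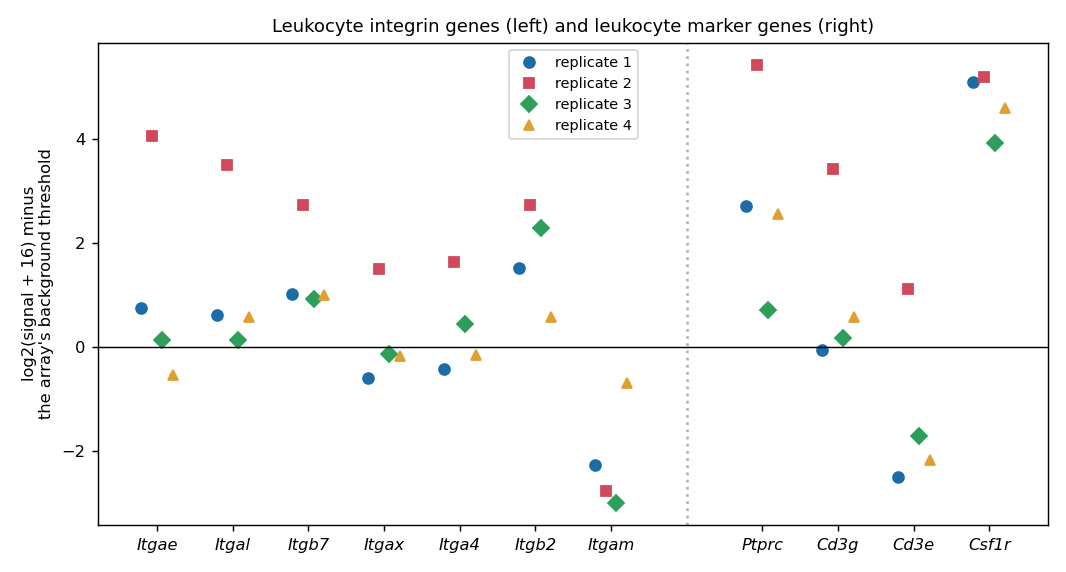
Leukocyte integrin genes and 4 leukocyte marker genes in each of the 4 samples, as log2(signal + 16) minus the array's background threshold, 1 point per sample. Itgae (11.04 before subtraction) and Itgal (10.48) stand apart in replicate 2, as do Ptprc (12.42) and Cd3g (10.41), whereas Itgb2, Itgam and Csf1r do not show replicate 2 apart from the rest.

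The spread between samples was then set against that of other probe sets of like level. Each variance was divided by the one limma fits for that level, in a variance ratio (F) test. Of 39 probe sets tested, 0 passed this F test after Benjamini-Hochberg adjustment (smallest adjusted p = 0.578), as did 0 of all 18414 probe sets above background (0.0%). At an unadjusted p under 0.05 there were 3 of 39 (7.69%) against 6.28% of all, a share near that of probe sets in general. These 3 were the brightest probe sets of Nid1 and Itga8 and the second probe set of Agrn, whose adjusted p in the same F test were 0.578, 0.624 and 0.747. The sample differences below are therefore given as values, without a test. The median SD of the 24 genes was 0.63 log2 units against 0.41 for all named genes above background, and 10 of the 24 (41.7%) had an SD under 0.5 against 64.4% of all.

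Replicate 3 was the sample in which these genes were most often lowest. It was so for 14 of the 24 genes (58.3%), against 34.3% of all named genes above background, and replicates 1, 2 and 4 for 3, 3 and 4, against 19.4%, 23.6% and 22.7%. The highest sample was replicate 1, 2, 3 and 4 for 4, 9, 4 and 7 genes, where it was for 23.0%, 25.3%, 27.6% and 24.1% of all. Replicate 3 exceeded the mean of the other 3 for 5 of the 24 (20.8% against 47.4%). The median over the 24 genes was -0.54 log2 units in replicate 3 against 0.07, 0.17 and 0.31 in replicates 1, 2 and 4, while the medians of all named genes above background ranged from -0.05 to 0.05. Genes at least 1 log2 unit lower in replicate 3 were Lama3, Lamb1, Lamc1, Nid1, Itga8, Itga9 and Itgb8, 7 of 24 (29.2% against 9.63% of all). Itgb2 was the only gene of the 24 at least 1 log2 unit higher there (1.06), and Itgb4, Itgb5, Itgav and Hspg2 were also above the mean of the others, by 0.26, 0.33, 0.11 and 0.72.

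The genes of epithelial sheets and those of muscle and mesenchyme both lay low in replicate 3, with medians of -0.50 over 6 genes and -0.74 over 6 genes. In the same sample the urothelial markers had a median of 0.41, the smooth muscle markers 0.19, and the fibroblast and endothelial markers -2.15 and -1.90. Endothelial markers were highest in replicate 2 in 7 of 9 cases and lowest in replicate 3 in 8 of 9. That order, highest in replicate 2 and lowest in replicate 3, was also that of Lama3, Lamb2, Lamc1, Nid1, Itga8, Itga9 and Itgb8, 7 of the 24 genes (29.2%) against 13.9% of all. The part of vessels and connective tissue in these values was not tested.

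By the brightest probe set, all 8 expressed laminin chains exceeded the mean of the other samples in replicate 4, with a median of 0.90, where 53.4% of all named genes above background did. In replicate 3 it was 0 of the 8, with a median of -0.90, against 47.4% of all. The excess in replicate 4 is thus partly set by the low values of replicate 3. With replicate 3 left out of the mean, Lamc1 in replicate 4 lay at -0.36, Lama3 at 0.09 and Lamb2 at 0.2. The remaining chains lay at 0.71 to 1.66. The highest sample was replicate 4 for Lama2, Lama4, Lama5, Lamb1 and Lamb3 and replicate 2 for Lama3, Lamb2 and Lamc1. The second probe set of Lama4 was highest in replicate 2. The 12 integrin genes above background had medians of 0.16 in replicate 4 and -0.38 in replicate 3, and 1 of them, Itgb1, was highest in replicate 4. Replicate 4 was also the array with the lowest 3' to 5' ratios, 18.77 for Gapdh and 4.426 for Actb. For Actb, replicates 1, 2 and 3 had 8.231, 19.8 and 5.269, so replicate 3, with the low laminin values, lay near replicate 4. The part of RNA integrity in the laminin values was not tested.

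**Figure D3:**
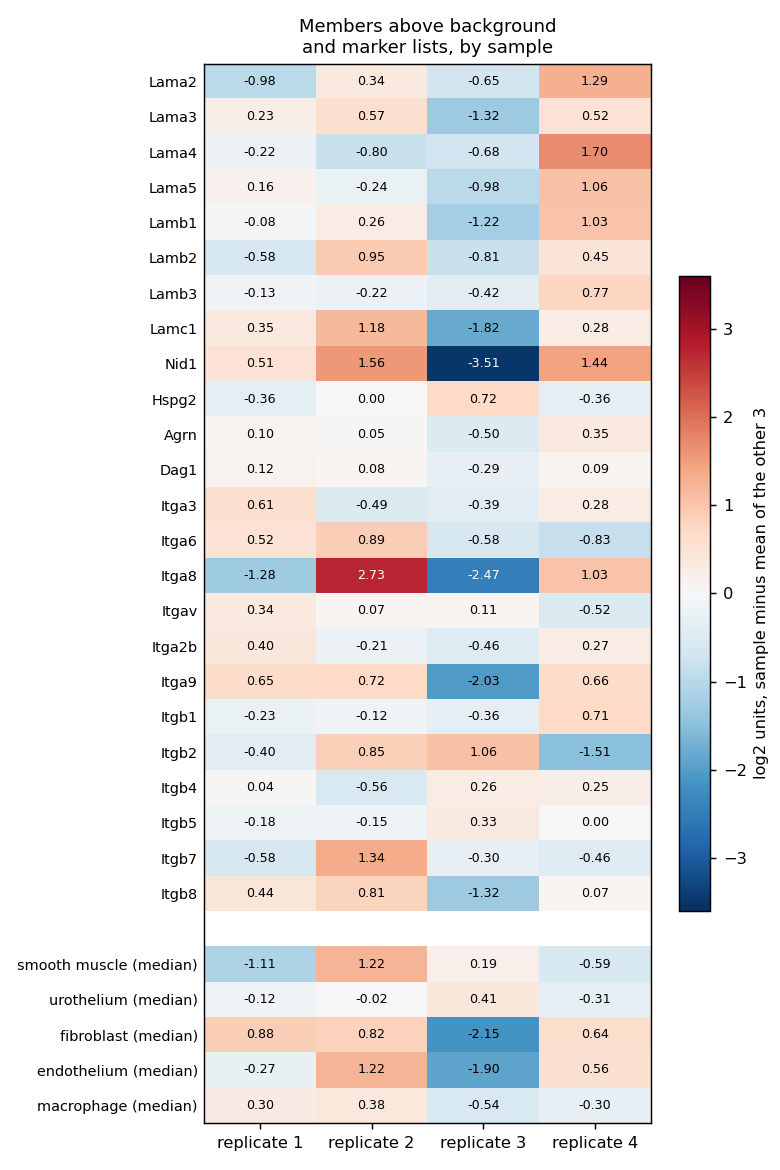
Heat map of the 24 genes above background, each cell giving a sample's level minus the mean of the other 3 in log2 units, with the medians of 5 marker lists in the lowest rows. The replicate 3 column is blue for most rows, down to -3.51 for Nid1, while the laminin rows are red in replicate 4, up to 1.70 for Lama4.

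Different probe sets of the same gene often gave different orders of the samples. More than 1 probe set was measured for 24 genes, and in 11 of them the background call differed between probe sets, as it did in 51.7% of all such genes. Among the 10 genes with at least 2 probe sets above background, the same sample was highest for 4 and lowest for 3, where these shares were 31.1% and 29.3% of all named genes. Lama5 and Lamb1 were cases of accord. The second probe set of Lama5 had 11.22, 11.38, 10.81 and 12.29, and that of Lamb1 had 8.87, 9.80, 8.32 and 10.77, so replicate 3 was lowest and replicate 4 highest by each.

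Itga6, Lama4, Agrn, Hspg2 and Lamc1 were cases of discord. The second probe set of Itga6 had 10.83, 10.82, 11.75 and 12.41, low where the brightest one was high. That of Lama4 had 11.52, 12.03, 9.96 and 11.48, with replicate 3 lowest and replicate 2 highest, and so without the peak in replicate 4. The second probe set of Agrn had 7.65, 8.33, 9.97 and 11.02, a range of over 3 log2 units in a gene whose brightest probe set spanned 0.64. Those of Hspg2 (7.33, 9.59, 4.97 and 8.76) and Lamc1 (7.57, 5.26, 9.49 and 11.55) were not above background and ran against the brightest in replicate 3.

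Apart from the brightest probe set of each gene, 15 dimmer probe sets were above background. Of these, 10 were highest in replicate 4 (66.7%), against 30.4% of dimmer probe sets of all named genes, and 0 were lowest there, against 17.1%. Among them 8 were lowest in replicate 3 (53.3% against 26.4%). Replicate 4 had the lowest 3' to 5' ratios, whose part in these orders was not tested. Dag1, Itgav and Itgb5 also had no sample that was highest, or lowest, by all their probe sets above background. Itgb5 was 0.33 above the other samples in replicate 3 by its brightest probe set and lowest there by its other 3. Itga9 differed in its highest sample and Itgb1 in its lowest. The order of the samples for these genes and for Itga6, Lama4, Agrn, Hspg2 and Lamc1 depends on the probe set read, and no difference between samples in these genes is given as more than the value of its probe set.

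**Figure D4:**
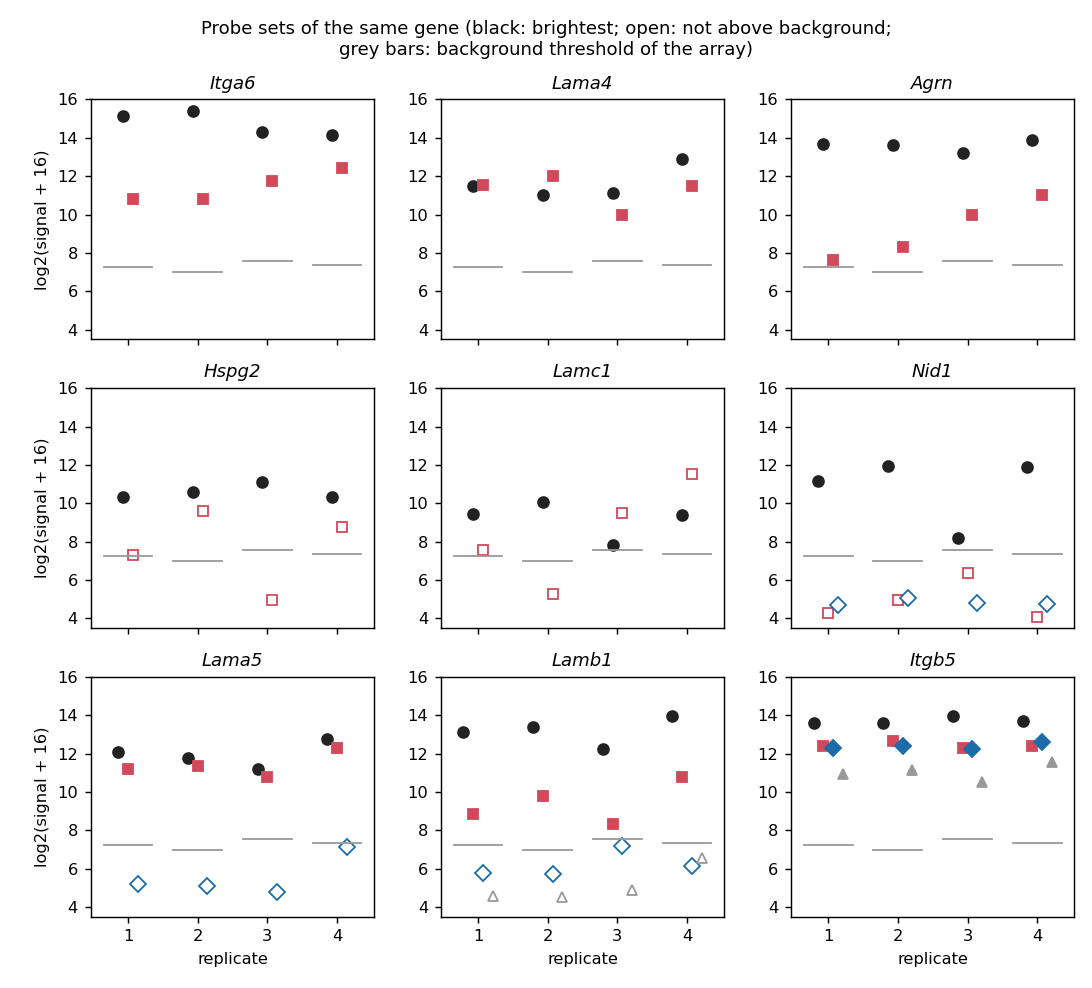
Levels of up to 4 probe sets each of 9 genes in the 4 samples, as log2(signal + 16); black points are the brightest probe set, open points were not above background and grey bars mark the array's background threshold. For Itga6 the black points fall to 14.13 in replicate 4 while the second probe set is at its highest there (12.41), and for Lama5 and Lamb1 the filled points share their lowest sample, replicate 3.

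Lists of other genes of the same structures are read against the 57.8% of all named genes above background and the 34.3% of those that were lowest in replicate 3. Of 19 basement membrane collagens and associated proteins 16 (84.2%) were above background, among them Col4a1 at 11.93 ± 0.43, Col4a2 at 10.83 ± 0.45, Col4a4 at 10.99 ± 1.04, Col4a5 at 10.83 ± 0.26 and Col4a6 at 12.30 ± 0.93, the chains of the collagen IV network. Col4a3 was not (7.83 ± 1.67, adjusted p = 0.456). Their median was -0.68 in replicate 3, which was the lowest sample for 13 of the 16. Col4a6, with 12.62, 12.57, 10.95 and 13.07, was lowest in replicate 3 and highest in replicate 4, as Lama5 and Lamb1 were.

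All 6 hemidesmosome genes beside Itga6 and Itgb4 were above background. Col17a1, the transmembrane collagen of hemidesmosomes, was at 13.00 ± 0.32, and Dst and Plec, the plakins that bind keratin, were at 15.25 ± 0.28 and 13.28 ± 0.28. Cd151, the tetraspanin that accompanies laminin-binding integrins, was at 14.26 ± 0.24 and Krt5, a basal cell keratin, at 14.31 ± 0.44. Krt14, its partner keratin, varied most, with 10.74, 13.30, 8.65 and 11.72.

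On the inner side of the membrane, 17 of 18 integrin adhesion genes were above background, including the talins Tln1 at 10.72 ± 0.44 and Tln2 at 9.44 ± 0.29 and the kindlin Fermt2 at 12.57 ± 0.46. Their medians stayed between -0.12 and 0.22 in the 4 samples. Of the dystrophin complex, which ties dystroglycan to actin, 7 of 11 genes (63.6%) were above background, a share near that of all genes, with Dmd at 10.40 ± 0.74 and its relative Utrn at 14.45 ± 0.57, while Sgca, a sarcoglycan of striated muscle, was not (7.14 ± 1.51, adjusted p = 1) and was highest in replicate 3 at 9.18. All 5 measured genes for the sugar chain by which dystroglycan binds laminin were above background, such as Pomt1 at 8.36 ± 0.54, Pomt2 at 9.27 ± 0.55 and Pomgnt1 at 11.05 ± 0.44. Of 10 other integrin ligands 6 were, also near the share of all genes, and all 6 were lowest in replicate 3, with a median of -1.45; Vtn at 7.48 ± 1.31 and Tnc at 6.53 ± 0.75 were not above background (adjusted p = 0.725 and 1).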

How the data were processed

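Total RNA of 4 ureter samples was measured on Affymetrix arrays with 45101 probe sets. The deposited values are intensities on a linear scale. The submitters' processing notes name GCOS. No version or algorithm of it was found. After trimming 2% of probe sets at each end, each array had a mean intensity of 1500, so no further scaling was done, and log2(intensity + 16) was taken, which compresses differences among dim probe sets. Controls (64 probe sets) were not used. Genes were named by the platform annotation, in which 34945 probe sets have 1 symbol, 932 several and 9160 none. All 39 genes were found by identifier in RefSeq (GRCm38.p6), with 0 symbols changed. Promoters come from RefSeq, which listed 26 of the 39 genes.

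As a threshold on each array, the 95th percentile of 83 olfactory, vomeronasal and taste receptor probe sets was taken. Of these 83, 0 were above background, which the choice of threshold largely fixes, so it is no check of the calls. Limma 3.58.1 in R 4.3.3 gave the background test (trended, robust) and the prior variance for the variance ratio test. The latter was an F test with 3 and 5.25 degrees of freedom, whose prior comes from the same arrays. An adjusted p under 0.05 was called. On simulated data the variance ratio test found only a minority of the probe sets given a wider spread, and the background test found nearly all of those far above the threshold but missed most of those moderately above it, with far fewer true signals than the arrays hold, so a gene that did not pass is not shown to be absent or even.

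The genes and lists were chosen with earlier results of these data known. Any of the 39 genes could be named, with the first 3 measured genes of each other list, the hemidesmosome genes and the collagen IV genes. Alternatives were pseudocounts, quantile normalization, other thresholds, probe set handling, an intensity filter of 50 and leaving out each sample. The fibroblast, Schwann cell, adipocyte, smooth muscle, urothelial, endothelial, macrophage, lymphocyte, platelet, skeletal muscle, liver, male accessory gland and kidney tubule lists served as markers. Of the Schwann cell list 1 of 6 genes and of the adipocyte list 0 of 4 were above background, and of the fibroblast, endothelial, macrophage, skeletal muscle, liver and male accessory gland lists 7 of 8, 9 of 10, 5 of 7, 2 of 12, 2 of 6 and 1 of 8.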

Additional observations from a re-analysis of the deposited data

Results flagged for a closer look

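In 4 of the 39 genes (10.3%) 1 sample lay apart from the other 3, with a gap to its neighbour that passed Dixon's 95% critical value as a share of the whole range, and 6.85% of all named genes did so. Chance alone gives about 1 in 20. Itga9 was lowest in replicate 3 at 7.97, with a gap of 0.97 of its range, and Dag1 was lowest there at 14.52, with 0.90 of a range of only 0.30 log2 units; its other 3 probe sets were not lowest in replicate 3. Itgal was highest in replicate 2 at 10.48, with a gap of 0.91, and Itgb7 was highest there at 9.71, with 0.85. The second probe set of Itgal, under the threshold in each sample, was lowest in replicate 2. Nid1, whose level in replicate 3 was furthest from the others in log2 units, was not among them, since its other 3 samples also differed.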

How the results depend on the processing

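No paired analysis was possible because all 4 samples form 1 group. Of the 39 genes, 24 were above background, and the count was 24 with pseudocounts of 1 and 64, with quantile normalization, by the brightest probe set alone and after dropping probe sets whose probes are shared between transcripts. It was 23 with the 99th percentile, 18 with the median plus 3 median absolute deviations, 25 over probe sets with a mean intensity of at least 50, 25 without a test, and 24 to 27 without single samples. The count of probe sets was 39, 35 with the 99th percentile, 25 with the median plus 3 median absolute deviations and 38 to 43 without single samples. The count passing the variance ratio test was 0 under every alternative run, including one over all probe sets.

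At the median plus 3 median absolute deviations the means of Lamc1, Itgb2 and Itgb7 lay at -0.21, -0.31 and -0.68 log2 units from the threshold, and Itga2b, Itga9 and Itgb4 also lost their calls. The cause was not tested. Nid2 gained a call over the brighter probe sets (adjusted p = 0.0495, limma), and Nid2, Itgal and Itgb3 gained one without replicate 3. In all, 18 genes were above background and 12 were not under each alternative run gene by gene. The median of replicate 3 was -0.54 and ranged from -0.69 with quantile normalization to -0.43 without replicate 4. That of replicate 1, 0.07, ranged from -0.17 over all measured genes to 0.22 without replicate 4, so its sign is not settled. That of replicate 2 was 0.17 (0.09 to 0.29) and that of replicate 4 was 0.31 (0.15 to 0.58). Quantile normalization moved the median of all probe sets by 0.112, 0.202, -0.254 and -0.0458 in replicates 1 to 4. For probe sets above background it moved by 0.0565, 0.0499, -0.0444 and -0.0871. Low signal over background limits the genes near the threshold.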
